A study of Homo sapiens with 16 samples.

Results

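The genes described here are 10 feedback and output genes of ERK signaling in 2 ovarian cancer cell lines. They are the phosphatase genes DUSP4, DUSP5 and DUSP6, the inhibitor genes SPRY2, SPRY4, SPRED1 and SPRED2, the ETS factor genes ETV4 and ETV5, and PHLDA1. They are 10 of the 59428 genes in the count table. Their symbols were taken as a list that was chosen from measured values of these libraries, because DUSP6 and ETV5 responded to olaparib differently in the lines. The values behind that choice, olaparib against DMSO in each line and the difference between the lines, are therefore given here as a description without a test. The level without drug was not the criterion and was tested, although the same DMSO libraries enter the contrasts that led to the choice. A low value in the OVCAR3 DMSO libraries raises both the response in OVCAR3 and the difference between the lines. The adjusted p-values of the members between the lines are therefore not independent of the choice.

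The experiment addressed the effect of the PARP inhibitor olaparib on cancer cells with and without intact BRCA1, a gene of homologous recombination repair. OVCAR3 carries intact BRCA1 and was grown in RPMI 1640 with 20% FBS and bovine insulin. UWB1.289 carries a deleterious BRCA1 mutation and was grown in a mixture of MEGM and RPMI 1640 with 3% FBS. Cells were kept for 96 h with olaparib, at 7.5 µM for OVCAR3 and 3.5 µM for UWB1.289, the inhibitory dose determined for each line, or with the solvent DMSO as control. Each of the 4 groups (OVCAR3 DMSO, OVCAR3 olaparib, UWB1.289 DMSO, UWB1.289 olaparib) has 4 replicates, which come from repeats of the experiment. With 1 line for each BRCA1 status, the line, BRCA1, the dose and the medium cannot be told apart.

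ERK kinases are the last step of the cascade that leads from receptor tyrosine kinases through RAS, RAF and MEK. Active ERK induces genes that feed back on it: DUSP phosphatases remove the activating phosphates from ERK, Sprouty proteins act near the receptors and RAS, and SPRED proteins bring neurofibromin to RAS. ETV4 and ETV5 are transcription factors of the PEA3 group that are raised by the same signal, and the RNA of all of these is in common use as a readout of ERK output. PHLDA1 is another gene induced by growth factor signaling, with a pleckstrin homology-like domain protein as its product.

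Libraries were primed at the 3′ end of polyadenylated RNA, and total counts ranged from 5599571 to 7730228 per library with a median of 6413979.5. Of 8 markers of serous ovarian carcinoma, 8 had at least 10 counts in every OVCAR3 library, and 7 in every UWB1.289 library, where WT1 had 0 counts with DMSO and at most 3 with olaparib. The summed level of these markers fell within OVCAR3 from between 4063 and 4332 counts scaled to library size (CPM) with DMSO to between 2610 and 2897 with olaparib, with KRT8 and KRT18 called lower. In UWB1.289 it went from between 7245 and 7862 CPM to between 5787 and 7049. Of 8 markers of immune, fibroblast and endothelial cells, 1 reached 10 counts in every library of OVCAR3 and 4 in every library of UWB1.289. Their sum lay between 24.0 and 31.5 CPM in OVCAR3 with DMSO, 34.3 and 41.1 in OVCAR3 with olaparib, 53.0 and 70.6 in UWB1.289 with DMSO and 39.9 and 49.1 in UWB1.289 with olaparib. The marker that reached 10 counts throughout OVCAR3 was COL1A1, with 121 to 210 counts in the DMSO libraries. In UWB1.289 they were COL1A2, COL1A1, PTPRC and PECAM1. With DMSO these held 267 to 358, 23 to 30, 32 to 48 and 16 to 25 counts in that order. The T cell marker CD3E had at most 1 count in any library. The part of these shifts in the results was not tested.

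Promoter sequences are given at a start of the 3 members with the widest contrasts among those with a sequence. They show how often the letters at the centre of ETS sites occur there. RefSeq promoters (build GRCh38.p14, 250 bases before to 50 after the start) were at hand for 6 of the 10 genes, not for DUSP4, DUSP5, ETV4 and ETV5. The DUSP6 promoter lies at chr12:89352452-89352751, that of SPRY4 at chr5:142324198-142324497 and that of PHLDA1 at chr12:76031727-76032026, all on the minus strand. The SPRY4 window lies inside the annotated span of the gene, whose start on this strand is at 142326455. The windows of DUSP6 and PHLDA1 hold the annotated gene start. Capitals mark GGAA, the core of ETS sites, on either strand (TTCC is its reverse), letters that were looked up after the expression values were known.
DUSP6: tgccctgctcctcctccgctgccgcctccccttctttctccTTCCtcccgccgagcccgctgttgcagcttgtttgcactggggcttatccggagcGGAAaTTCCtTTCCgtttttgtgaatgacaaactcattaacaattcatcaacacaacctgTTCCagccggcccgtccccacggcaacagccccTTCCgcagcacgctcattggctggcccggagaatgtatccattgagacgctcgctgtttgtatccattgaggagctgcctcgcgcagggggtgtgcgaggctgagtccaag
SPRY4: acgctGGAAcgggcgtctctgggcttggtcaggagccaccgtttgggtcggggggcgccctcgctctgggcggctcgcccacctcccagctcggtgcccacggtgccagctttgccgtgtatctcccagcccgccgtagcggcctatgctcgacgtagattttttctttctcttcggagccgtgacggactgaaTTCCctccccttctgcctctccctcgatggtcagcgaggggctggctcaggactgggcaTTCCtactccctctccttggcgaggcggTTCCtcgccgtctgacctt
PHLDA1: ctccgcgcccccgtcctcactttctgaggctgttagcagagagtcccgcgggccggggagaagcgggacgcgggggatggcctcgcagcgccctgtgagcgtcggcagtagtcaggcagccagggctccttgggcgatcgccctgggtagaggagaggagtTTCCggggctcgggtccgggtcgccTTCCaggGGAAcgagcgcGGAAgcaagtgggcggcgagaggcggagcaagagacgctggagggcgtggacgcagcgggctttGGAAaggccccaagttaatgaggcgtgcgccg
GGAA occurred 6 times in the DUSP6 window, 5 times in that of PHLDA1 and 4 times in that of SPRY4, where the median of 35116 promoters was 3. As many or more matches were held by 16.1%, 28.6% and 46.0% of all promoters, so these counts are within the common range. The full ETS site CCGGAAGT (4.14% of promoters), the cyclic AMP response element TGACGTCA (1.85%), the serum response CArG box (1.293%) and the E-box CACGTG (7.26%) had no match, on either strand, in the 9 windows of the 6 genes. The AP-1 site TGANTCA (7.71%) matched only in 1 of the SPRED2 windows (chr2:65366729-65367028), at 2 places.

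Most of the feedback genes were low in OVCAR3 without drug, were higher there with olaparib, and in UWB1.289 were high with or without drug. Of the 10, 8 were called higher with olaparib in OVCAR3, against 2.90% of the 13031 genes tested, and 0 were called in UWB1.289 by edgeR or by DESeq2, against 1.93% higher and 0.282% lower of 12748. A gene was called at a Benjamini-Hochberg adjusted p below 0.1 over all genes tested, a log2 fold change beyond 1 and an average normalized count above 10. Since this contrast chose the genes, nothing is read from these counts. The median log2 fold change of the 10 was 1.95 in OVCAR3 (all genes -0.01) and -0.02 in UWB1.289 (all genes -0.004). In these bulk samples, fewer cells with a gene on and less of its RNA per cell cannot be told apart.

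**Figure D1:**
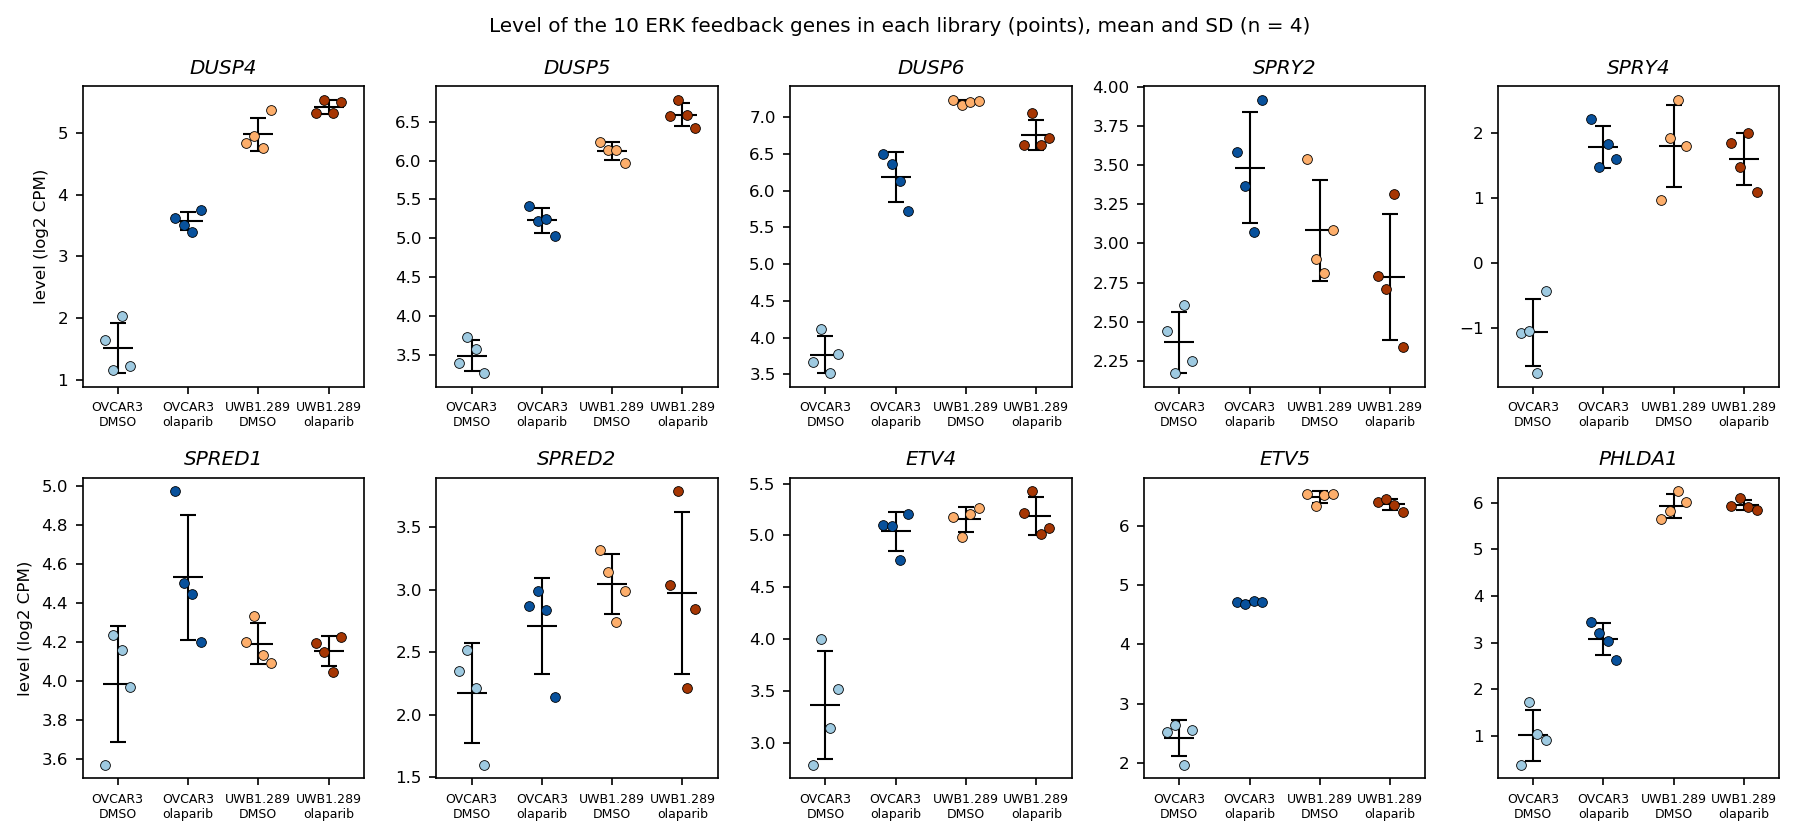
Level of each of the 10 genes (log2 CPM, vertical axis, a separate scale for each gene) in the 4 groups, with points for the 4 libraries of a group and bars for the mean and SD. OVCAR3 with DMSO has the lowest mean for every gene, and for DUSP4, DUSP5, DUSP6, ETV5 and PHLDA1 the libraries of UWB1.289 lie above those of OVCAR3 with olaparib.

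Levels are given from here on as CPM after TMM scaling over the 16 libraries, in the order of replicates 1 to 4, and as mean ± SD with n = 4. Among the phosphatases, DUSP6 (ENSG00000139318, chromosome 12, 89347235 to 89352501, minus strand) codes for a cytoplasmic phosphatase that acts on ERK. It was at 12.4, 17.0, 11.2 and 13.3 CPM in OVCAR3 with DMSO and at 90.6, 82.4, 70.2 and 52.8 with olaparib. In UWB1.289 it was at 151, 144, 148 and 149 with DMSO and at 98.1, 133, 98.2 and 105 with olaparib. DUSP6 thus moved up in OVCAR3 and down in UWB1.289, and in either line the 4 libraries of one treatment did not overlap the 4 of the other. The log2 fold change was 2.46 (SE 0.159) in OVCAR3 and -0.45 (SE 0.0943) in UWB1.289, a difference of -2.91 (SE 0.191). The fall in UWB1.289 was less than the fold required. In UWB1.289 with DMSO the coefficient of variation was 1.97%, below the 3.19% that counting alone gives. The closeness of those libraries is therefore no measure of precision. From high to low, the groups stood in the order UWB1.289 DMSO, UWB1.289 olaparib, OVCAR3 olaparib and OVCAR3 DMSO, with no overlap between neighbours.

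DUSP5 (ENSG00000138166, chromosome 10, 110497907 to 110511533, plus strand) codes for a nuclear phosphatase of ERK. Its level in OVCAR3 was 10.3, 13.0, 11.6 and 9.32 CPM with DMSO and 42.4, 37.1, 37.6 and 32.5 with olaparib. The UWB1.289 values were 75.4, 69.9, 69.9 and 62.1 with DMSO and 94.5, 109.8, 96.0 and 85.4 with olaparib. DUSP5 was the only member with olaparib above DMSO without overlap in both lines. Its log2 fold change was 1.77 (SE 0.136) in OVCAR3 and 0.48 (SE 0.0966) in UWB1.289. DUSP4 (ENSG00000120875, chromosome 8, 29333064 to 29350684, minus strand), another nuclear phosphatase of the family, was at 2.81, 1.93, 3.77 and 2.01 CPM in OVCAR3 with DMSO and 11.97, 11.1, 10.3 and 13.2 with olaparib. In UWB1.289 DUSP4 was at 28.5, 30.7, 26.8 and 41.1 CPM with DMSO and 39.6, 46.3, 40.0 and 45.4 with olaparib. Replicate 4 of the UWB1.289 DMSO group reached into the olaparib range, so these groups overlapped. The log2 fold changes of DUSP4 were 2.13 (SE 0.231) and 0.43 (SE 0.127), a difference of -1.70 (SE 0.252) between the lines.

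The Sprouty genes were scarcer and their groups overlapped more. SPRY4 (ENSG00000187678, chromosome 5, 142310427 to 142326455, minus strand), an inhibitor that acts upstream of RAF, had raw counts of 1, 1, 0 and 3 in the OVCAR3 DMSO libraries and of 28, 16, 23 and 20 with olaparib. UWB1.289 had 11, 21, 34 and 24 counts with DMSO and 20, 14, 23 and 12 with olaparib. SPRY4 was therefore close to the limit of detection in OVCAR3 without drug and detected in every library of the other 3 groups, which overlapped each other. From the summed counts of 87 and 5, scaled to library size, the ratio of olaparib to DMSO in OVCAR3 was 16.4, with a 95% interval of 6.78 to 51.8 that covers counting error only. The fitted log2 fold change, which depends on the prior count, was 3.92 (SE 0.535) and became 4.68 without DMSO replicate 4, the library with 3 counts. Without olaparib replicate 1 or 3, SPRY4 was not called, with 3.75 and 3.92, because its average count (11.3 over 8 libraries) is just above the limit. In UWB1.289 the fitted change of SPRY4 was -0.27 (SE 0.346).

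SPRY2 (ENSG00000136158, chromosome 13, 80335976 to 80341126, minus strand) is the other Sprouty gene of the list. In OVCAR3 it was at 5.13, 4.202, 5.79 and 4.45 CPM with DMSO and at 11.7, 9.99, 8.12 and 14.8 with olaparib, and all olaparib libraries were higher. With 8.34 ± 2.07 CPM with DMSO and 6.80 ± 2.05 with olaparib, the UWB1.289 groups overlapped. The change of SPRY2 was 1.19 (SE 0.216) in OVCAR3 and -0.30 (SE 0.232) in UWB1.289 on the log2 scale. OVCAR3 with olaparib held the highest mean of SPRY2 and SPRED1 among the 4 groups, but each overlapped its neighbour in the order.

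The SPRED genes differed least. SPRED1 (ENSG00000166068, chromosome 15, 38252836 to 38357249, plus strand) went from 15.8 ± 3.09 to 23.2 ± 5.54 CPM with olaparib in OVCAR3, with overlap, and from 17.99 ± 1.36 to 17.5 ± 0.952 in UWB1.289. Its log2 fold changes were 0.56 (SE 0.171) and -0.03 (SE 0.129). SPRED2 (ENSG00000198369, chromosome 2, 65310851 to 65432637, minus strand) was at 4.32 ± 1.15 and 6.40 ± 1.56 CPM in OVCAR3 and at 8.05 ± 1.38 and 8.17 ± 3.88 in UWB1.289, with DMSO and olaparib. The log2 fold changes of SPRED2 were 0.57 (SE 0.261) and 0.01 (SE 0.258). For both SPRED genes all neighbours in the order of the 4 groups overlapped, and they are the only members that were not called in OVCAR3.

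ETV5 (ENSG00000244405, chromosome 3, 186046314 to 186110318, minus strand), which codes for a PEA3 factor, was at 5.46, 5.95, 3.62 and 5.59 CPM in OVCAR3 with DMSO and at 26.1, 25.3, 26.3 and 26.0 with olaparib. UWB1.289 gave 93.0, 80.4, 91.8 and 92.4 CPM with DMSO and 84.4, 87.2, 81.5 and 74.9 with olaparib. The OVCAR3 olaparib libraries overlapped no other group, while the UWB1.289 groups overlapped each other. The log2 fold change was 2.34 (SE 0.161) in OVCAR3 and -0.12 (SE 0.0885) in UWB1.289, with a difference of -2.46 (SE 0.164). In OVCAR3 with olaparib the coefficient of variation of ETV5 was 1.76%, below the 7.53% that counting alone gives at this depth, so that closeness is no measure of precision.

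ETV4 (ENSG00000175832, chromosome 17, 43527844 to 43579620, minus strand) reached about the same level in 3 of the 4 groups. It was at 6.61, 15.8, 8.54 and 11.2 CPM in OVCAR3 with DMSO and at 34.0, 33.7, 26.9 and 36.6 with olaparib. With 35.5 ± 2.91 CPM for DMSO and 36.3 ± 4.78 for olaparib, UWB1.289 overlapped the olaparib libraries of OVCAR3. The log2 fold changes of ETV4 were 1.65 (SE 0.187) and 0.03 (SE 0.115).

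PHLDA1 (ENSG00000139289, chromosome 12, 76025447 to 76031776, minus strand) showed the widest gap between the lines. In OVCAR3 its level was 0.992, 2.98, 1.74 and 1.58 CPM with DMSO and 10.6, 8.90, 7.83 and 5.89 with olaparib. The UWB1.289 libraries were at 50.2, 56.2, 75.7 and 64.4 with DMSO and at 60.4, 68.3, 60.0 and 57.2 with olaparib. The increase in OVCAR3, 2.19 on the log2 scale (SE 0.299), left its libraries far below UWB1.289, where the change was -0.002 (SE 0.113).

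**Figure D2:**
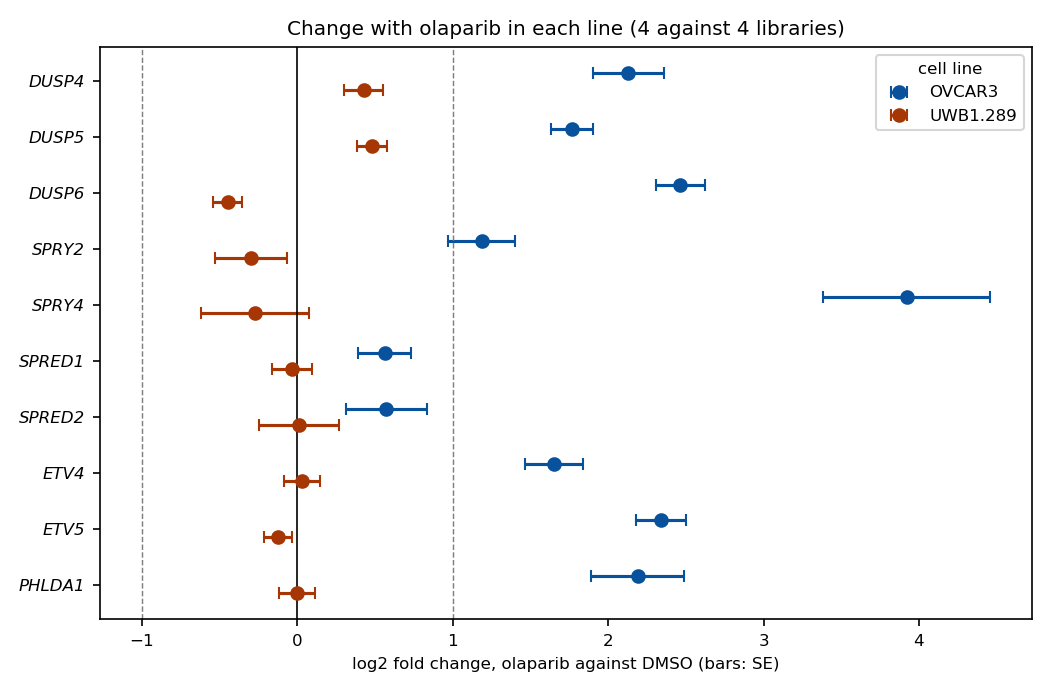
Log2 fold change of olaparib against DMSO (horizontal axis) with its SE for the 10 genes, in OVCAR3 (blue) and UWB1.289 (brown), 4 against 4 libraries each. Dashed lines mark a log2 fold change of 1 either way; 8 genes lie beyond it in OVCAR3, and in UWB1.289 all values lie between -0.45 and 0.48.

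Side by side, the log2 fold changes ran from 0.56 to 3.92 in OVCAR3 and from -0.45 to 0.48 in UWB1.289. The groups did not overlap for 8 members in OVCAR3, olaparib being higher, where 12.6% of all tested genes were of that kind. In UWB1.289 this held for DUSP5 upward (7.90% of all tested genes) and for DUSP6 downward (6.84%). The log2 fold change was lower in UWB1.289 for each of the 10, with 8 called in the contrast of the 2 changes, against 1.66% of 14243 genes called in that direction. The same contrast chose the genes. SPRED1 (-0.59, SE 0.220) and SPRED2 (-0.56, SE 0.389) were the members not called in it.

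The question of how far the lines differ without drug was tested on the 8 DMSO libraries with edgeR's quasi-likelihood test. Of the 10 genes, 7 were called higher in UWB1.289, against 18.7% of 13366 genes tested, and none lower, against 19.7%. All 4 UWB1.289 libraries lay above all 4 OVCAR3 libraries for 9 of them, against 34.4% of all genes. The median log2 difference of the members was 3.06 (all genes -0.02), or 2.75 with SPRY4 set to the lower bound of its counting interval. The lines differ at so many genes that a difference at any 1 gene is common, and the list of 10 was not tested as a set. Since the DMSO libraries also entered the choice of the list, these counts and the adjusted p-values of the members are not independent of it.

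**Figure D3:**
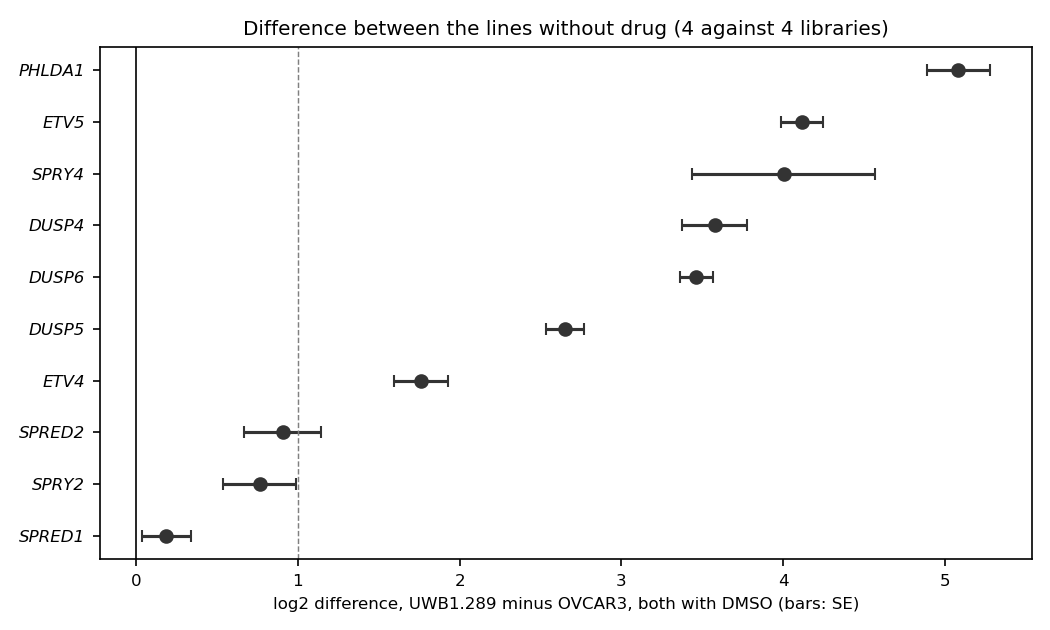
Log2 difference of UWB1.289 against OVCAR3, both with DMSO (horizontal axis), with its SE for the 10 genes, sorted, 4 against 4 libraries. The dashed line marks a log2 difference of 1; PHLDA1 stands highest at 5.08 and SPRED1 lowest at 0.19.

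PHLDA1 differed most, by 5.08 in log2 (SE 0.195, edgeR adjusted p = 3.70e-20), a 33.9-fold higher level in UWB1.289. ETV5 followed with 4.12 (SE 0.129, edgeR adjusted p = 2.59e-22) and the other PEA3 factor, ETV4, with a smaller 1.76 (SE 0.166, edgeR adjusted p = 7.27e-11). All 3 phosphatases were higher in UWB1.289. The difference was 3.58 for DUSP4 (SE 0.201, edgeR adjusted p = 4.89e-16), 3.46 for DUSP6 (SE 0.104, edgeR adjusted p = 9.00e-23) and 2.65 for DUSP5 (SE 0.118, edgeR adjusted p = 1.63e-18).

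The inhibitors of the Sprouty family divided. SPRY4 had 90 counts in the UWB1.289 and 5 in the OVCAR3 DMSO libraries, a ratio of 17.4 (95% counting interval 7.20 to 55.0, edgeR adjusted p = 2.30e-07 at a log2 difference of 4.003). Without UWB1.289 DMSO replicate 3, which holds 34 of the 90 counts, it was not called (log2 difference 3.71), since its average count fell below the limit. SPRY2 (0.77, SE 0.226, edgeR adjusted p = 0.00317) and SPRED2 (0.91, SE 0.238, edgeR adjusted p = 0.0011) were higher by less than the fold required. SPRED2 passed it without UWB1.289 DMSO replicate 3 (1.01) or OVCAR3 DMSO replicate 2 (1.02). For SPRED1 no difference was detected (0.19, SE 0.151, edgeR adjusted p = 0.262), with a 95% interval of -0.11 to 0.48.

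Set against the drug-free level of UWB1.289, OVCAR3 with olaparib reached into the same range for some members and not for others. After olaparib, OVCAR3 overlapped UWB1.289 DMSO for SPRY2, SPRY4, SPRED1, SPRED2 and ETV4. It stayed below without overlap for DUSP4, DUSP5, DUSP6, ETV5 and PHLDA1. The mean log2 CPM of these differed from that of UWB1.289 DMSO by 0.89 for DUSP5 and by 2.86 for PHLDA1. These are levels from groups that share neither line nor treatment, and they were not tested. The share of all genes without overlap was not counted for this pair of groups. Between the lines with DMSO, 34.4% of all genes were higher in UWB1.289 without overlap. The split of the members is therefore a description only.

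Other genes of the pathway came from lists written with earlier results of these data known: 13 relatives of the members, 25 further response genes of ERK, 32 genes of the cascade itself and 10 brakes on it. In OVCAR3 with olaparib, 8 of the 21 response genes tested were called higher and 2 lower, against 2.90% and 2.33% of all genes. The median log2 fold change of the 21 was 0.76 (all genes -0.01). FOSL1, an AP-1 subunit, had 4 counts in the 4 DMSO libraries and 100 with olaparib, a ratio of 23.6 (95% counting interval 8.93 to 88.3, edgeR adjusted p = 1.08e-05). The EGFR ligand genes AREG (2.45, SE 0.148, edgeR adjusted p = 4.12e-10) and TGFA (1.61, SE 0.177, edgeR adjusted p = 1.30e-06) rose as well. IER3, an early response gene that modulates ERK, rose by 2.43 (SE 0.131, edgeR adjusted p = 1.22e-10). SPHK1, the sphingosine kinase gene, rose by 2.35 (SE 0.292, edgeR adjusted p = 6.28e-06) and PLAUR, the urokinase receptor gene, by 1.57 (SE 0.164, edgeR adjusted p = 6.65e-07). CCND1, the cyclin D1 gene, rose by 1.08 (SE 0.104, edgeR adjusted p = 2.12e-07).

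The immediate early gene EGR1 went the other way. It fell from between 166 and 224 CPM to between 59.5 and 80.0 with olaparib in OVCAR3, or -1.47 in log2 (SE 0.107, edgeR adjusted p = 3.98e-09). The other response gene called lower there was FOS. In UWB1.289 EGR1 went from between 22.3 and 28.8 to between 2.25 and 5.67 CPM (-2.82, SE 0.211, edgeR adjusted p = 1.73e-09). Thus EGR1 was lower with olaparib in both lines, including the line in which 8 of the 10 feedback genes were higher.

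Of the 11 relatives tested in OVCAR3, the phosphatase genes DUSP2 (1.94, SE 0.335, edgeR adjusted p = 2.34e-04) and DUSP10 (1.84, SE 0.315, edgeR adjusted p = 2.13e-04) were called higher and none lower (all genes 2.90% and 2.33%). No gene of the cascade (32 tested) or of the brakes (10 tested) was called by edgeR or DESeq2, although 12 and 4 of them had an unadjusted p below 0.05. The same numbers passed the adjusted p and missed the fold required, 8 cascade genes with higher and 4 with lower values, and 3 and 1 of the brakes. Without regard to the fold, 4066 of all 13031 genes passed with an average count above 10, so such passes were common. The receptor gene FGFR2 was nearest to the limit (-0.99, SE 0.169, edgeR adjusted p = 2.05e-04). It was called with the replicate block (-1.02) and without OVCAR3 olaparib replicate 1 (-1.04) or 2 (-1.17) or DMSO replicate 1 (-1.01). Among the kinase genes themselves, the log2 fold change was -0.17 for MAPK3 (SE 0.128, edgeR adjusted p = 0.383) and 0.15 for MAP2K1 (SE 0.266, edgeR adjusted p = 0.744). EGFR was at 69.4 ± 7.35 CPM with DMSO and 69.1 ± 6.90 with olaparib (a log2 change of 0.0005, SE 0.0966, edgeR adjusted p = 0.998).

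In UWB1.289 fewer genes of these lists were called. HBEGF, another EGFR ligand gene, rose by 1.32 (SE 0.127, edgeR adjusted p = 1.30e-07) and EPHA4, an ephrin receptor gene, by 1.21 (SE 0.290, edgeR adjusted p = 0.00905). Together with the fall of EGR1 these made 2 higher and 1 lower of 21 response genes, against 1.93% and 0.282% of all genes. The median of the 21 was 0.46 (all genes -0.004). Without regard to the fold, 13 were higher and 2 lower at the adjusted p, where OVCAR3 had 12 and 3, and 17 of 21 values were positive in either line. Of all genes, 1760 of 12748 in UWB1.289 and 4066 of 13031 in OVCAR3 passed it with an average count above 10. Among 10 relatives, DUSP10 was higher by 1.07 (SE 0.256, edgeR adjusted p = 0.00908). That call was lost without UWB1.289 olaparib replicate 2 (0.91) or 3 (0.92) or DMSO replicate 3 (0.92). No gene of the cascade (29 tested, 4 at an unadjusted p below 0.05) or of the brakes (10 tested, 2) was called with edgeR or with DESeq2, while 3 of the cascade and 0 of the brakes passed the adjusted p. CCND1 changed by -0.26 (SE 0.0731, edgeR adjusted p = 0.0238), less than the fold required. MAPK3 (-0.27, SE 0.117, edgeR adjusted p = 0.165), MAP2K1 (0.05, SE 0.180, edgeR adjusted p = 0.905) and EGFR (0.03, SE 0.0885, edgeR adjusted p = 0.884) did not pass the test.

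The difference between the changes was tested for the lists over all 16 libraries. Of 23 response genes, 7 were called with a lower log2 fold change in UWB1.289, and EPHA4 with a higher one, where 2% of all genes were called higher. The 7 were FOSL1 (-3.84, SE 0.546, edgeR adjusted p = 1.61e-05), SPHK1 (-1.89, SE 0.324, edgeR adjusted p = 2.17e-04), IER3 (-1.85, SE 0.171, edgeR adjusted p = 8.74e-09), AREG (-1.69, SE 0.198, edgeR adjusted p = 7.52e-07), EGR1 (-1.35, SE 0.240, edgeR adjusted p = 3.48e-04), CCND1 (-1.34, SE 0.132, edgeR adjusted p = 2.61e-08) and TGFA. Of 12 relatives, 2 were called in each direction, and no gene of the cascade (32 tested, 7 at an unadjusted p below 0.05) or the brakes (10 tested, 4) was called by edgeR or DESeq2. Of these, 4 cascade genes and 1 brake passed the adjusted p, as did 1521 of all 14243 genes with an average count above 10. MET (-0.95, SE 0.173, edgeR adjusted p = 4.77e-04) was called without OVCAR3 DMSO replicate 2 (-1.02) or 3 (-1.02), OVCAR3 olaparib replicate 3 (-1.002) or UWB1.289 DMSO replicate 1 (-1.002) or 2 (-1.01). FGFR4 (-1.03, SE 0.597, edgeR adjusted p = 0.339) was called without OVCAR3 DMSO replicate 2 (-1.47). The difference was -0.10 for MAPK3 (edgeR adjusted p = 0.813), -0.09 for MAP2K1 (edgeR adjusted p = 0.937) and 0.03 for EGFR (edgeR adjusted p = 0.946).

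**Figure D4:**
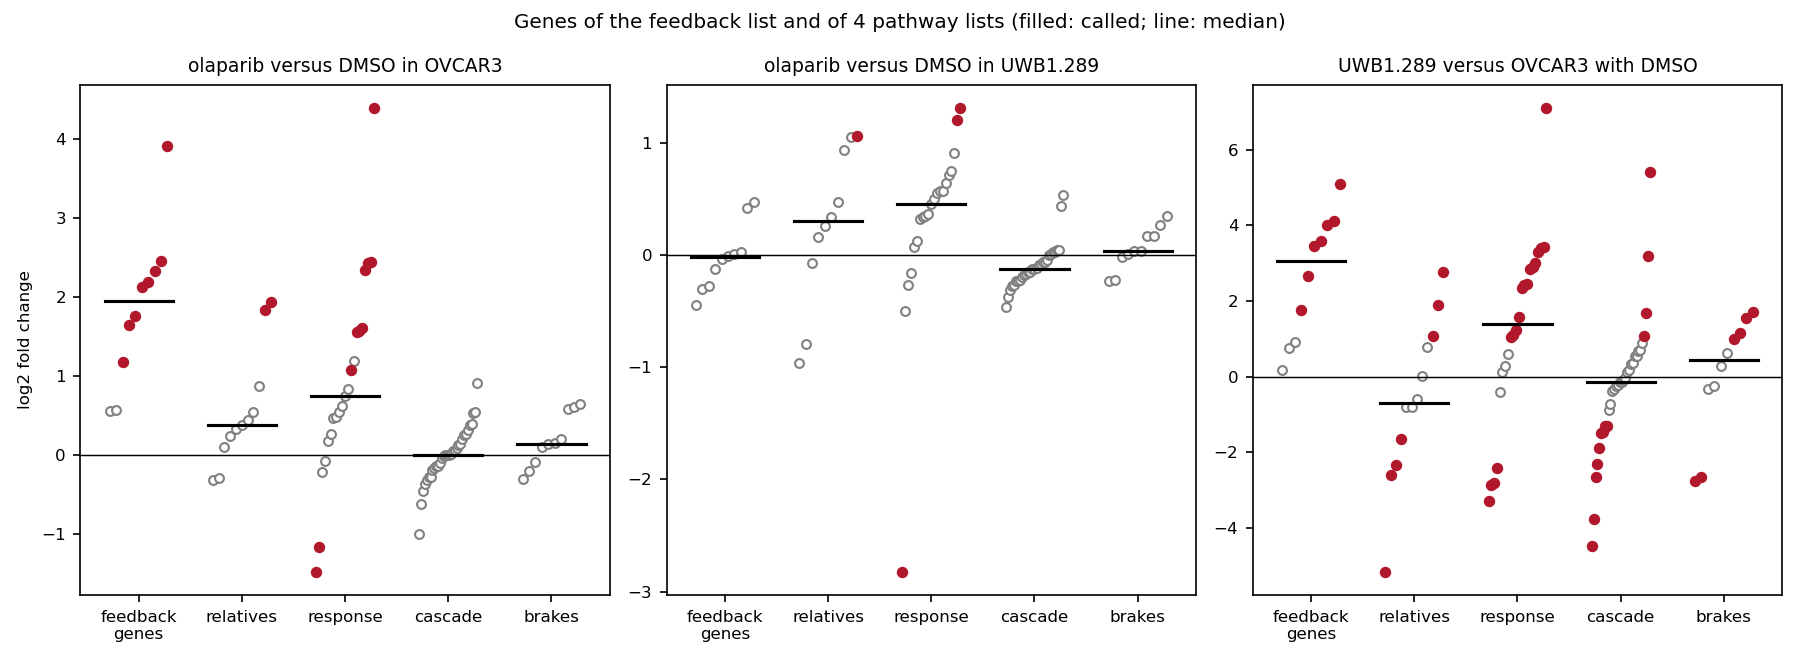
Log2 fold change (vertical axis, its range set for each panel) of the tested genes of the 10 feedback genes and of the 4 pathway lists in 3 comparisons, with filled points for called genes and a line at the median of each list. The median of the response genes is 0.76 with olaparib in OVCAR3, 0.46 with olaparib in UWB1.289, where that of the feedback genes is -0.02, and 1.40 between the lines, and no cascade or brake gene is called with olaparib in either line.

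Between the lines with DMSO, 14 of 22 response genes were called higher in UWB1.289 and 4 lower, with a median of 1.40. Of all 13366 genes tested, 18.7% were called higher and 19.7% lower, with a median of -0.02. FOSL1 stood highest, with 641 counts in UWB1.289 against 4 in OVCAR3, a ratio of 155 (95% counting interval 60.3 to 571, edgeR adjusted p = 2.62e-17). AREG (3.43, SE 0.133, edgeR adjusted p = 5.46e-20), SPHK1 (3.40, SE 0.258, edgeR adjusted p = 5.99e-13), TGFA (3.30, SE 0.143, edgeR adjusted p = 7.27e-19) and UPP1 (3.00, SE 0.127, edgeR adjusted p = 4.29e-19) were also higher, as was CCND1 (2.35, SE 0.0896, edgeR adjusted p = 3.26e-20). EGR1 (-2.86, SE 0.104, edgeR adjusted p = 1.08e-20) and EPHA4 (-3.28, SE 0.222, edgeR adjusted p = 3.78e-14) were lower, opposite to the feedback genes.

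The relatives split, with 3 of 12 called higher and 4 lower in UWB1.289 (all genes 18.7% and 19.7%) and a median of -0.70. ETV1, the third PEA3 factor, was higher by 2.77 (SE 0.392, edgeR adjusted p = 2.24e-07) and DUSP7, an ERK phosphatase gene, by 1.91 (SE 0.185, edgeR adjusted p = 1.36e-10). PHLDA3 was lower (-5.15, SE 0.288, edgeR adjusted p = 4.05e-16), the opposite of PHLDA1, and DUSP9 (-2.60), DUSP16 (-2.34) and SPRED3 (-1.63) were lower as well.

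Within the cascade 4 of 32 genes were called higher and 9 lower (all genes 18.7% and 19.7%), with a median of -0.14. Calls either way were common among all genes, and the cascade was not tested as a set. The receptor genes MET (5.42, SE 0.119, edgeR adjusted p = 4.49e-26), IGF1R (3.20, SE 0.208, edgeR adjusted p = 1.54e-14) and EGFR (1.09, SE 0.0880, edgeR adjusted p = 2.59e-12) were higher in UWB1.289. The receptor genes FGFR1 (-3.76, SE 0.168, edgeR adjusted p = 1.67e-18) and FGFR4 (-2.64), the adaptor gene GAB1 (-2.31) and the scaffold gene KSR1 (-4.47) were lower. MAP2K1 (0.70, SE 0.151, edgeR adjusted p = 1.23e-04) and MAPK3 (0.56, SE 0.114, edgeR adjusted p = 6.37e-05) differed by less than the fold required.

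Of the 10 brakes, 4 were called higher and 2 lower in UWB1.289 (all genes 18.7% and 19.7%). NF1, the neurofibromin gene whose protein works with SPRED proteins, was lower (-2.76, SE 0.0962, edgeR adjusted p = 3.60e-21), with 28.3 ± 3.42 CPM against 191 ± 18.4 in OVCAR3. The ubiquitin ligase genes of the CBL family went in opposite directions, CBLB being lower (-2.65, SE 0.165, edgeR adjusted p = 5.90e-15) and CBL higher (1.54, SE 0.0966, edgeR adjusted p = 6.38e-15). PEBP1, the RAF kinase inhibitor gene (1.72, SE 0.0644, edgeR adjusted p = 2.18e-20), and the RAS GTPase activator genes RASA1 (1.15) and RASAL2 (1.01) were higher. RASAL2 sits at the fold required, and its call was lost without UWB1.289 DMSO replicate 2 (0.98) or 4 (0.999) or OVCAR3 DMSO replicate 1 (0.995) or 3 (0.94).

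Across the 4 groups, the genes nearest to DUSP6 and ETV5 were searched among 9541 genes with an average count above 50, by the root mean square difference of the 4 group means of log2 CPM after centring each gene. Nearest to DUSP6 were SOX9 (0.28), FILIP1L (0.34), ABCC3 (0.35), PLAU (0.36) and SPHK1 (0.36). Among the members, DUSP5 held place 11, ETV5 place 16, DUSP4 place 19, ETV4 place 56 and PHLDA1 place 1095. Nearest to ETV5 were CLDN1 (0.19), MICB (0.20), DUSP4 (0.24), NRCAM (0.27) and TRIM47 (0.29), and DUSP6 was at place 23, DUSP5 at 37, PHLDA1 at 40 and ETV4 at 524. SPRY2 and SPRED1 were far from both, at places 2296 and 3772 for DUSP6 and 3355 and 4308 for ETV5. With average counts of 15.7 and 43.6, SPRY4 and SPRED2 fell below the limit of 50 and were not ranked. With 4 group means per gene, such likeness is a description and says nothing of shared control.

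Some members share their span with other genes, and whether reads were counted by strand is not stated in the sources used here. DHX8 on the opposite strand spans ETV4 and had 3755 counts over the 16 libraries against 2983 for ETV4. The counts of DHX8 did not follow those of ETV4: its log2 fold change was -0.02 in OVCAR3, -0.01 in UWB1.289 and -0.85 between the lines. SPRY4-AS1, opposite SPRY4, had 45 counts against 251, of which 0 fell in OVCAR3 with DMSO, 4 in OVCAR3 with olaparib, and 21 and 20 in the UWB1.289 groups. DGKG overlaps ETV5 on the same strand with 90 counts against 5208, and ETV5-AS1 had 0 counts. A small RNA gene within ETV5 carries a symbol that many loci share, so no count could be assigned to it. In the annotation used, no other gene that is also in the count table overlaps DUSP4, DUSP5, DUSP6, SPRY2, SPRED1, SPRED2 or PHLDA1.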

How the data were processed

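RNA of OVCAR3 and UWB1.289 cells, 16 libraries in 4 groups, was measured with QuantSeq 3′ libraries. Single-end reads were trimmed (BBDuk) and aligned in 2 passes to hg38 (STAR 2.7.9a). The authors deposited raw counts per gene, made by featureCounts 2.0.0 on GENCODE release 38. Counts had not been normalized, and strand, multimapping and overlap settings are not stated in the sources used here. In 3′ libraries the counts come from the ends of transcripts, so isoforms are not resolved.

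Groups were taken from the sample titles. The 10 genes, the pathway lists and the tests were chosen with earlier results of these data known. Counts were filtered with filterByExpr, scaled with TMM and tested in R 4.3.3 with edgeR 4.0.16 (quasi-likelihood F test, Benjamini-Hochberg adjustment over all genes tested). Calls needed an adjusted p below 0.1, more than a 2-fold change and an average normalized count above 10. SEs were taken from log2 values and the F statistic, and 95% intervals of a log2 value are normal. Levels (log2 CPM) used a prior count of 2. Intervals of count ratios are exact (Clopper-Pearson). Named were the 10 genes, the called genes of each list (the 6 with the largest change where more were called), EGR1, CCND1, EGFR, MAPK3 and MAP2K1, the 5 nearest genes to DUSP6 and to ETV5, and genes that overlap a member. The values of 1 further gene under this rule are not reported here. FOS, FGFR2 in OVCAR3, MET and FGFR4 in the difference, and the cell type markers that appear by name were named after their values were seen. Positions are those of GENCODE release 44 on the same build.

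Fits had no replicate block. In UWB1.289, libraries that share a number correlated at 0.137 to 0.225 over 9542 genes after removal of group means. Since each pair was above 0.1, the numbers were taken to pair these libraries, and the block, an alternative, changed no count of called members or list genes there. In OVCAR3 (0.0324 to 0.167) and between the lines (-0.0013 to 0.0243) they were not so taken. Within groups no 2 libraries held the same values (chi-square per gene at least 3.03). Alternatives were DESeq2 1.42.0, its size factors, no filter, other thresholds, all 16 libraries in 1 fit, a replicate block, fits without each library in turn and a prior count of 0.5. The test was tested on simulated data.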

Additional observations from a re-analysis of the deposited data

Results flagged for a closer look

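Of 40 groups of 4 libraries (10 genes in 4 groups), 1 held a library far from the rest. ETV5 had a log2 CPM of 6.34 in UWB1.289 DMSO replicate 2, while the other 3 libraries lay between 6.52 and 6.54. By chance about 1 in 20 such groups would hold one.

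For genes outside the list of 10, the direct test of the difference of the olaparib effect (UWB1.289 minus OVCAR3, log2, edgeR) called 12. The negative values were FOSL1 -3.84, SPHK1 -1.89, IER3 -1.85, ETV1 -1.74, AREG -1.69, DUSP2 -1.46, EGR1 -1.35, CCND1 -1.34 and TGFA -1.24. For EGR1, which was lower with olaparib in both lines, the value means a larger fall in UWB1.289. The positive values were DUSP9 1.38, PHLDA3 1.37 and EPHA4 1.290. FOSL1, SPHK1, IER3, AREG, EGR1 and CCND1 were called in each of the 16 fits that left out 1 library. The values of TGFA and EPHA4 in those fits were not recorded. DUSP2 was called in 13 of the fits, PHLDA3 in 10, ETV1 in 9 and DUSP9 in 4. Several of these genes rest on few counts. In the UWB1.289 DMSO libraries DUSP9 held between 3 and 12 counts and PHLDA3 between 2 and 8. In the OVCAR3 DMSO libraries ETV1 held between 3 and 6, and FOSL1 between 0 and 3. The value of FOSL1 ran from -5.18 to -3.43 over the 16 fits, so its size is loosely set.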

How the results depend on the processing

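No member changed direction where it was called, and the count of members called in each comparison was within 1.5 times in all settings but these. With an average count above 50, 5 members were called higher in OVCAR3 (8 with the limit of 10) and 2 list genes in UWB1.289. Without the fold-change threshold, 2 members were higher and 1 lower in UWB1.289, and the called genes of the 4 lists numbered 35 in OVCAR3, 22 in UWB1.289, 67 between the lines and 23 for the difference, against 12, 4, 44 and 12. Called genes of the whole table then numbered 4066, 1760, 10497 and 1521, against 682, 282, 5127 and 521. Leaving out 1 library gave 7 to 8 members called in OVCAR3, 7 to 8 between the lines and 8 to 8 for the difference, and 3 to 7 list genes in UWB1.289 (7 without olaparib replicate 1). The mean level of SPRY4 in OVCAR3 with DMSO was -2.18 log2 CPM with a prior count of 0.5 and -1.06 with 2. EGFR turned to -0.00313 in OVCAR3 with all 16 libraries in the fit and to -0.00748 for the difference without the filter. Leaving out 1 library, its values ran from -0.071 to 0.070 in OVCAR3, from -0.037 to 0.062 in UWB1.289 and from -0.040 to 0.10 for the difference, and those of MAP2K1 from -0.076 to 0.43, -0.15 to 0.23 and -0.38 to 0.14. The cause was not tested. With the replicate block, for the pairing by number, 8, 0, 7 and 8 members were called in OVCAR3, UWB1.289, between the lines and for the difference, as without it, and 14, 4, 44 and 12 list genes. In OVCAR3 and likewise in UWB1.289, 3 of 4 libraries correlated best with their own number, so by this measure the lines did not differ. Depth limits SPRY4 in OVCAR3 with DMSO most, with 0 to 3 counts in a library and a counting error of 89.4% of its level.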
